A study of Pseudotsuga menziesii with 66 samples.

Results

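Needles of Douglas-fir (Pseudotsuga menziesii) were followed through a year, and 170 of the 199471 transcripts in the count table are described here, those whose level was highest around the summer solstice. Members were chosen from CPM, the standard scaling of each count by its library's total. The mean over the libraries of a date was taken for each of 16 collection dates. Transcripts entered when the average of the date means lay between 10 and 1000 CPM, the highest date mean was at least 4 times the lowest (taken as no less than 0.1 CPM), the highest date was 17 Jun or 7 Jul 2011, and every library of that date lay above the 16-date average. A limit of 200, ordered by the ratio of the highest date to the mean of the others, was not reached. Of 4708 transcripts within the level and range limits, 227 were highest on these dates, and 57 of them were left out because a library of the highest date was at or below the average. Of the members, 53 were highest on 17 Jun and 117 on 7 Jul. The summer height of the members is therefore a consequence of the choice and is given below as a description.

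The study took needles of the 2010 cohort, around midday, from 5 trees. All came from the Oregon Siskiyou low elevation source, CCTO43, CCTO46 and CCTO89 from a lower locality and CCTO44 and CCTO90 from a higher one, and grew with no stated treatment in 1 common garden in a warm and dry part of Oregon, where they had been planted in 2009 when 2 years old. Each tree gave 1 poly(A) RNA library per date, and 66 libraries were analysed here. The dates ran from 27 Oct 2010 to 26 Oct 2011, with all 5 trees on 6 of the dates, 4 trees on 7 dates, CCTO43, CCTO44 and CCTO90 on 7 Oct and 26 Oct 2011, and CCTO44 and CCTO46 alone on 7 Sep 2011. CCTO43 had no library from 7 Apr to 7 Sep 2011, so the summer levels come from the other 4 trees. The same cohort of needles was a year older on the last date, and date and needle age cannot be told apart.

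Conifer needles stay on the tree for several years and pass through each season in place. In winter they are cold-hardened and photosynthesis is held down; it recovers in spring, when new shoots begin to grow. Summer brings the longest days and the strongest light, and in western Oregon also heat and drought. Day length, light, temperature, water, growth and needle age change together over these dates and cannot be told apart by date. In needle RNA, fewer cells of a type and less RNA per cell cannot be told apart. The count table pairs its identifiers with no gene names, so members are called by these identifiers, and no gene family, pathway or cell type marker was followed.

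Libraries held 9924771 to 37373284 counts, with a median of 20944426. Where a library had a count of 0, 3 counts of its total set the upper limit, which ran from 0.0803 to 0.302 CPM over libraries and covers counting error only. When libraries were compared over 11882 transcripts, 64 of the 66 resembled their own tree most. The exceptions were the libraries labelled CCTO44 and CCTO46 of 17 Aug 2011, which each resembled the other's tree. Exchanging them would leave the mean of that date as it is, but it touches every value given for these trees on that date. The CCTO43 library of 26 Oct 2011 also stood apart, with a normalization factor (TMM) of 0.55, the lowest of all factors of that date, against a date mean of 0.981.

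The 170 members formed a warm-season plateau more than a peak at the solstice. Expressed as a percent of each member's own highest date mean, their median level was 28.7% on 27 Oct 2010, 19.1% on 30 Nov, 19.2% on 6 Jan, 39.5% on 23 Feb, 50.3% on 10 Mar, 54.7% on 7 Apr, 74.3% on 6 May, 78.7% on 17 Jun, 100% on 7 Jul, 85.5% on 28 Jul, 85.6% on 17 Aug, 45.1% on 7 Sep, 42.4% on 7 Oct and 41.5% on 26 Oct 2011. The median was higher on each date than on the one before from 30 Nov to 7 Jul, and the largest step down lay between 17 Aug and 7 Sep. Members were lowest on 30 Nov in 65 cases and on 6 Jan in 63. The median member held at least 50% of its highest mean on 7 of the 16 dates; 16 members did so on at most 3 dates and 32 on at least 10. Among all members, 122 were at 50% or more on both 6 May and 28 Jul, 40 on 28 Jul alone, 6 on 6 May alone and 2 on neither.

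**Figure D1:**
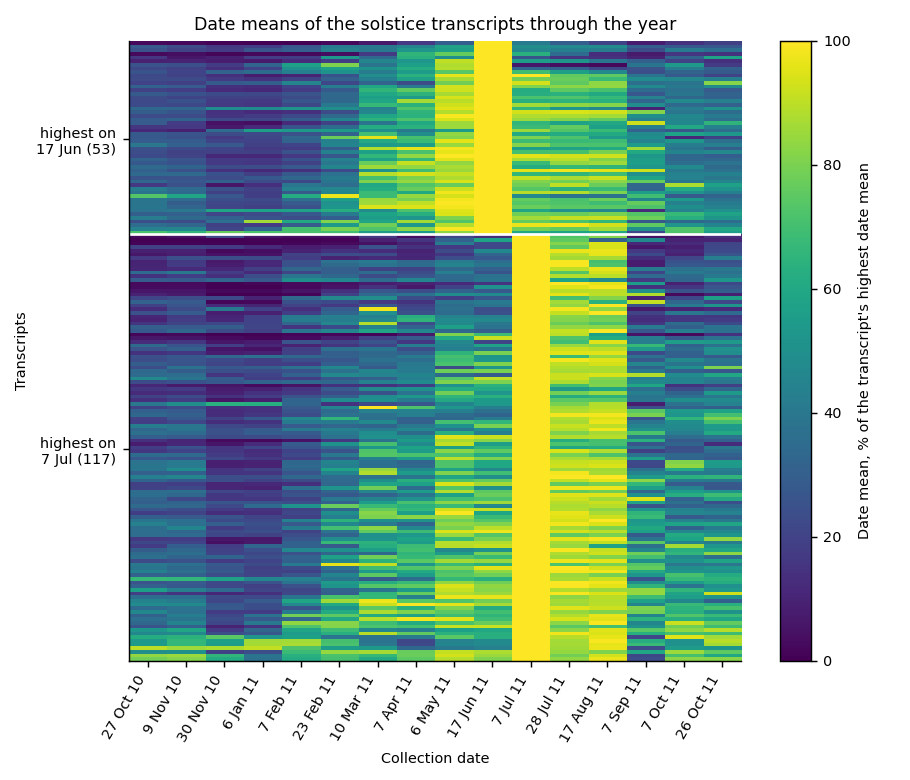
Date mean of each of the 170 members (rows) on the 16 collection dates (columns), as a percent of that member's highest date mean; the white line separates the 53 members highest on 17 Jun from the 117 highest on 7 Jul, and within each group rows run from few to many dates at 50% of the highest level or more. Most rows stay bright from 6 May to 17 Aug and are dark on 30 Nov and 6 Jan.

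Both groups shared the winter low and differed in level on the dates around the solstice. Members highest on 17 Jun had a median of 65.1% of their highest mean on 7 Apr, 89.1% on 6 May, 73.5% on 7 Jul, 72.1% on 28 Jul and 68.6% on 17 Aug. Members highest on 7 Jul had medians of 45.2% on 7 Apr, 67.8% on 6 May, 61.4% on 17 Jun, 88.0% on 28 Jul and 89.5% on 17 Aug. The next highest date was 6 May for 36 of the 53, and 17 Aug or 28 Jul for 48 and 39 of the 117.

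Summed as a share of each library, the 170 members made up 0.408 ± 0.0444% of counts on 30 Nov (SD, n = 5), 0.416 ± 0.0157% on 6 Jan (n = 5), 1.25 ± 0.268% on 10 Mar (n = 5), 1.66 ± 0.0885% on 6 May, 1.77 ± 0.207% on 17 Jun, 1.96 ± 0.0978% on 7 Jul, 1.78 ± 0.0605% on 28 Jul and 1.71 ± 0.0611% on 17 Aug (n = 4 each). On 7 Sep the share was 0.897% in CCTO44 and 1.34% in CCTO46, and on 7 Oct it was 0.845 ± 0.0697% (n = 3). Every library from 6 May to 17 Aug, at 1.57% or more, exceeded every library from 27 Oct 2010 to 23 Feb 2011, and the ranges of successive dates within that window overlapped. Within trees the share on 7 Jul was above that of 28 Jul in 4 of 4, at 1.95%, 2.06%, 1.98% and 1.83% on 7 Jul against 1.73%, 1.75%, 1.86% and 1.79% on 28 Jul in CCTO44, CCTO46, CCTO89 and CCTO90, an order that the choice of members bears on.

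The height of the maximum was small against its neighbours for most members. The highest date mean was a median of 1.07 times the next one, under 1.1 times in 107 members and at least 1.5 times in 8. In 25 members every tree was higher on the highest date than on the next, and in psme_t032930 alone did the libraries of both dates not overlap. That transcript had 46.5, 30.4, 34.9 and 48.5 CPM on 7 Jul in CCTO44, CCTO46, CCTO89 and CCTO90, against 24.9, 25.3, 19.3 and 23.2 CPM in the same trees on 28 Jul. Read tree by tree, 13 members had their own highest date on 17 Jun or 7 Jul in all 4 trees, 44 in 3, 72 in 2, 38 in 1 and 3 in 0 trees. These counts between dates and trees rest on maxima that the choice used. They are a description only, with no share over all transcripts beside them. Against the lowest date mean, in whichever season it fell and with at least 4-fold set by the choice, the highest was a median of 6.06 times as high. The highest date mean had a median of 48.7 CPM, with a range over members of 16.5 to 1470 CPM.

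The ratio that ordered the members, highest date over the mean of the other dates, had a median of 2.07 and ran from 1.41 to 7.64. Just inside the 4-fold limit stood psme_t006140 at 4.00 and psme_t001221 at 4.01, and just outside it psme_t020386 at 3.98 and psme_t039441 at 3.97. At the 10 CPM limit psme_t049423 (10.2 CPM) was inside and psme_t034691 (9.95 CPM) outside. The requirement on every library left out psme_t042356, with a ratio of 10.9 and libraries of 9.93 to 1010 CPM on 17 Jun, and psme_t082545, with a ratio of 9.62 and 6.85 to 238 CPM on 7 Jul. These left-out transcripts had larger ratios than any member, carried by some trees and not others. The smallest ratios inside were 1.42 in psme_t016856 and 1.41 in psme_t014731, both at 50% of their highest level or more on 14 dates. The opposite extremes in width were psme_t057554, at that level on 1 date, and psme_t022440, on 15 dates.

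Among the members highest on 17 Jun, psme_t057554 had the largest ratio. Its level on that date was 148, 375, 411 and 283 CPM in CCTO44, CCTO46, CCTO89 and CCTO90 (mean 304 ± 117, SD, n = 4), with a ratio of 7.64. In these trees in order it had 40.2, 94.5, 184 and 45.3 CPM on 6 May and 58.0, 144, 153 and 154 CPM on 7 Jul. Each tree was highest on 17 Jun, and the low library of that date, CCTO44, overlapped with the libraries of both neighbouring dates. From 27 Oct 2010 to 7 Feb it stayed at or below 21.8 CPM in all libraries, with a lowest date mean of 1.54 CPM on 6 Jan. CCTO43 was out of step in the last autumn, with 101 CPM on 7 Oct and 142 CPM on 26 Oct 2011, against 15.3 and 9.71 CPM in CCTO44 and 16.9 and 22.2 CPM in CCTO90.

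Next in order was psme_t054157, at 116, 156, 190 and 231 CPM on 17 Jun in CCTO44, CCTO46, CCTO89 and CCTO90. It was already at 85.3, 156, 140 and 72.1 CPM on 7 Apr and split between trees on 7 Jul, with 349 CPM in CCTO90 against 48.4, 32.2 and 10.5 CPM in CCTO44, CCTO46 and CCTO89. Then came psme_t053350 (44.4 ± 26.6 CPM on 17 Jun, ratio 3.54), psme_t032768 (43.5 ± 18.7 CPM, ratio 3.24) and psme_t023052 (180 ± 60.7 CPM, ratio 2.82; SD, n = 4 each). The 3 members with the highest means in this group were psme_t033855 at 1470 ± 718 CPM, psme_t017779 at 919 ± 94.2 CPM and psme_t035879 at 737 ± 74.5 CPM on 17 Jun. The mean of psme_t033855 was raised by CCTO46 at 2530 CPM, against 1310, 1090 and 960 CPM in CCTO44, CCTO89 and CCTO90, and its mean on 10 Mar was 1410 CPM. These abundant members were broad, at 50% of their highest level or more on 7 or 8 dates.

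Among those highest on 7 Jul, psme_t033818 had the largest ratio, 5.47. It had 114, 88.9, 111 and 93.9 CPM on 7 Jul in CCTO44, CCTO46, CCTO89 and CCTO90 (mean 102 ± 12.3, SD, n = 4). On 17 Jun the same trees had 16.0, 10.9, 11.2 and 15.3 CPM, and on 7 Sep CCTO44 and CCTO46 had 4.62 and 5.45 CPM. Its high level was thus held from 7 Jul to 17 Aug, with no overlap with the libraries of 17 Jun or 7 Sep, and levels of 8.39 to 36.4 CPM were seen on 30 Nov. A like onset was seen in psme_t041178, which had 505, 491, 294 and 224 CPM on 7 Jul in these trees in order, 57.6, 87.6, 47.6 and 37.9 CPM on 17 Jun, and 378 CPM on average on 28 Jul. The others with large ratios were low late in 2010: psme_t091355 averaged 0.0872 CPM on 27 Oct 2010, psme_t020001 0.194 CPM and psme_t048104 0.221 CPM on 30 Nov. Because psme_t091355 was under the 0.1 CPM limit and its libraries of 27 Oct 2010 had 0 to 3 counts, its range of 577-fold, the largest among members, rests on that limit. The most abundant members of this group were psme_t030480 (1110 ± 226 CPM), psme_t020270 (722 ± 82.2 CPM) and psme_t037024 (560 ± 43.2 CPM; SD, n = 4 each), all on 7 Jul.

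**Figure D2:**
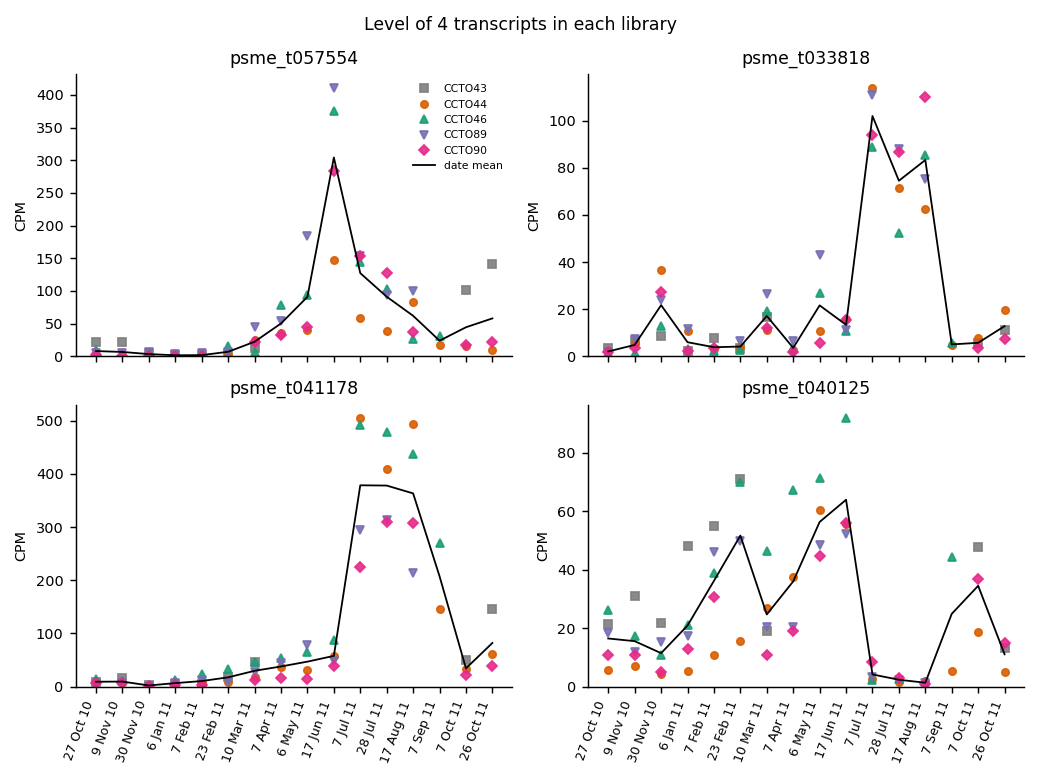
CPM (linear axis from 0) of 4 members in each library by collection date, with a symbol per tree and a line through the date means. psme_t057554 is high on 17 Jun in all 4 trees, and psme_t033818 and psme_t041178 are high from 7 Jul to 17 Aug. psme_t040125 is low from 7 Jul to 17 Aug, with a date mean of 1.30 CPM on 17 Aug.

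Libraries that the choice had not used were read next. The same rule was applied with 1 tree left out, and the highest date of the chosen transcripts was then looked up in the tree left out. Leaving out CCTO44, CCTO46, CCTO89 and CCTO90 gave 200, 185, 176 and 200 transcripts, of which 102, 113, 117 and 128 were among the 170. The limit of 200 cut the lists chosen without CCTO44 and without CCTO90. In the tree left out, 38 of 200 (19.0%), 68 of 185 (36.8%), 85 of 176 (48.3%) and 57 of 200 (28.5%) were highest on 17 Jun or 7 Jul. Over all transcripts within the level and range limits the shares were 4.40%, 6.50%, 10.5% and 5.86% in these trees. The mean was 33.1 ± 12.4% for the chosen transcripts and 6.81 ± 2.61% for all within the limits (SD, n = 4 trees), higher in 4 of 4 trees. With TMM effective library sizes, which multiply each total by a factor for composition, the means were 35.6% and 12.1%. In CCTO44 the most frequent highest date was 6 May, in the libraries labelled CCTO46 and in CCTO90 it was 17 Aug, and in CCTO89 it was 7 Jul.

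A wider window held in the trees left out. The highest date fell between 6 May and 17 Aug for 88.3 ± 1.62% of the chosen transcripts, against 27.6 ± 1.48% of all within the limits (SD, n = 4 trees; 27.5%, 29.0%, 28.4% and 25.6% in CCTO44, CCTO46, CCTO89 and CCTO90). The mean of 17 Jun and 7 Jul lay above the mean of the tree's other dates for 94.9 ± 1.11%, against 32.2 ± 1.99% (30.6%, 33.3%, 34.4% and 30.4% in these trees), and the median of this ratio was 1.66 ± 0.0779 against 0.673 ± 0.0617. These 2 readings were added after the highest dates had been seen. With TMM sizes, also added after the data were seen, the distance to all transcripts was smaller, at 88.1% against 40.7% for the window and 96.5% against 51.2% for the summer mean. The libraries of a date share the day and its weather, so the trees do not repeat the season.

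**Figure D3:**
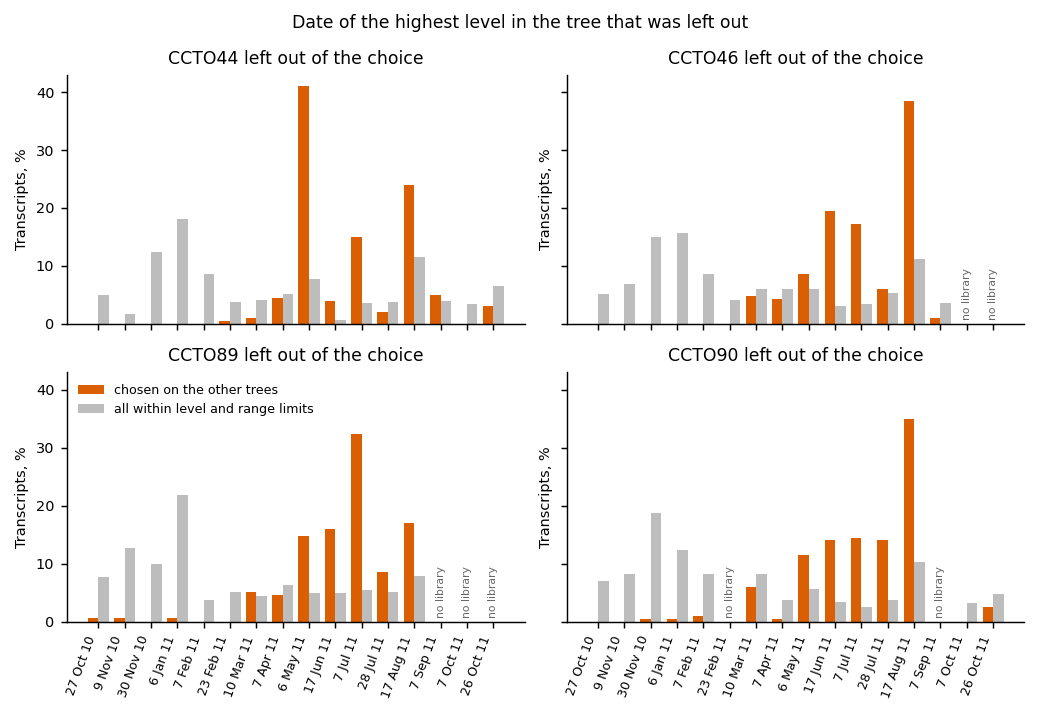
Percent of transcripts (vertical axis) whose highest library fell on each collection date in the tree that had been left out of the choice, for transcripts chosen on the other trees (orange) and all transcripts within the level and range limits (grey), 1 panel per tree. Orange bars gather between 6 May and 17 Aug in each panel, while the date with the tallest bar differs between trees.

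Scaling by total counts bears on the date of the maximum. The TMM factor averaged 1.16 on 6 Jan, 0.823 on 6 May and 17 Jun, 0.935 on 7 Jul and 1.02 on 17 Aug, and it multiplies the library total. With it, a description added after the data were seen, 129 of the 170 members stayed highest on 17 Jun (54) or 7 Jul (75), 23 moved to 6 May and 10 to 28 Jul, and 162 were highest between 6 May and 17 Aug.

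The last date repeated the first date's place in the calendar a year on. Members were higher on 26 Oct 2011 than on 27 Oct 2010. The choice bears on this comparison and on its split by group. Both dates entered the average over dates, and the range limit used the lowest date mean. The lowest date was 27 Oct 2010 in 8 members, all highest on 7 Jul, and 26 Oct 2011 in none. How much of the rise comes from the choice was not tested. Among the 170, 101 rose and 3 fell (edgeR quasi-likelihood test, Benjamini-Hochberg adjusted p under 0.05 over 60931 transcripts, tree as a block), while over all transcripts tested 13.8% rose and 15.0% fell. The median log2 change was 0.71 in members and -0.08 over all tested. Taken by group, 77 of 117 members highest on 7 Jul rose and 24 of 53 highest on 17 Jun. In the 3 trees sampled on both dates, 93 of the 101 were higher in each tree, and 94.7%, 82.4% and 75.3% of all 170 were higher in CCTO90, CCTO44 and CCTO43, beside 45.1%, 46.4% and 33.1% of all tested. In CCTO43 the median log2 change over all tested was -0.32. Without the CCTO43 library of 26 Oct 2011 there were 74 calls, 2 of them lower, beside 20.4% of all transcripts called. With only the libraries of both dates there were 66, all higher, beside 11.1% (28.8% in the main fit).

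psme_t091355 and psme_t020001 had the largest rises over the year and were nearly silent on the first date. For psme_t091355 that date also held the lowest date mean, which the choice used. psme_t091355 had 9.80, 1.8 and 4.79 CPM on 26 Oct 2011 in CCTO43, CCTO44 and CCTO90, against 0.126, 0.0779, 0.133, 0.0984 and 0 CPM on 27 Oct 2010 in CCTO43, CCTO44, CCTO46, CCTO89 and CCTO90. All later libraries lay above all earlier ones, on 221 counts against 10, a ratio of 58.5 after scaling to the totals (95% counting interval 31.2 to 124). The fitted log2 change was 5.84 ± 0.99 (SE; edgeR adjusted p = 1.07e-05), and 4.50 without the CCTO43 library of 26 Oct 2011 (edgeR adjusted p = 0.00153). For psme_t020001 the levels were 5.36, 9.66 and 11.6 CPM on the last date against 0.178 to 0.787 CPM on the first, a log2 change of 4.36 ± 0.51 (edgeR adjusted p = 5.7e-09). psme_t041178 rose by 3.56 ± 0.41 and psme_t009377 by 3.38 ± 0.47 on the log2 scale (edgeR adjusted p = 6.33e-09 and 3.16e-07). Their libraries of the first date had 5.46 to 13.5 CPM and 0.351 to 3.2 CPM, in this order.

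Few members fell over the year. psme_t002562 had 9.57, 39.0 and 33.5 CPM on 26 Oct 2011 in CCTO43, CCTO44 and CCTO90, against 41.4 to 53.5 CPM in 5 trees on 27 Oct 2010, with no overlap (log2 change -0.75 ± 0.16, edgeR adjusted p = 0.000174). With psme_t015666 the log2 change was -0.94 ± 0.35 (edgeR adjusted p = 0.0349), on 4.67, 17.7 and 9.58 CPM against 14.9 to 38.1 CPM, which overlap. This call was lost in 9 alternatives, among them leaving out CCTO43 (edgeR adjusted p = 0.112) or CCTO44 (edgeR adjusted p = 0.173). The call on psme_t002562 was lost when only the libraries of these dates were fitted (edgeR adjusted p = 0.137).

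Members were mostly lower on 7 Oct than on 10 Mar 2011, dates of similar day length on either side of summer. Both dates entered the choice through the 16-date average. Another pair of similar day length, 7 Sep and 7 Apr, is given below. On 7 Oct, set against 10 Mar 2011, 9 members rose and 80 fell by the same test, while over all transcripts 15.7% rose and 16.7% fell. Their median log2 change was -0.60, against -0.05 over all tested. Of the 80, 71 were lower in each of the 3 trees sampled on both dates. The falls included 31 of the 53 members highest on 17 Jun and 49 of the 117 highest on 7 Jul, and the 9 rises were all in the 7 Jul group. With only the libraries of both dates there were 58 calls, 6 higher and 52 lower, beside 23.3% of all transcripts called (32.3% in the main fit).

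psme_t019469 showed the largest fall, to 2.53, 4.42 and 1.36 CPM on 7 Oct in CCTO43, CCTO44 and CCTO90, against 18.9, 25.6, 45.2, 30.1 and 16.2 CPM on 10 Mar in CCTO43, CCTO44, CCTO46, CCTO89 and CCTO90 (log2 change -3.67 ± 0.51, edgeR adjusted p = 1.38e-07). March libraries all lay above October ones, and between its March and July highs this member had 4.64 to 7.18 CPM on 7 Apr, then 21.3 to 41.3 CPM on 7 Jul. In psme_t033855, the most abundant member, 123, 254 and 135 CPM on 7 Oct stood against 738 to 2680 CPM on 10 Mar (log2 change -3.18 ± 0.41, edgeR adjusted p = 3.01e-08). Rises were smaller. psme_t001221 had 37.2, 42.8 and 31.7 CPM on 7 Oct in CCTO43, CCTO44 and CCTO90, against 8.48 to 22.5 CPM on 10 Mar, with no overlap (log2 change 1.03 ± 0.16, edgeR adjusted p = 1.85e-06). psme_t008370 had 86.5, 65.5 and 43.1 CPM against 12.0 to 42.9 CPM (log2 change 1.03 ± 0.19, edgeR adjusted p = 1.97e-05), a call lost without the tree block (adjusted p = 0.0538).

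On the dates next to the solstice, 28 Jul set against 6 May, 35 members rose (20.6%, beside 15.3% of all transcripts tested) and 19 fell (11.2%, beside 15.7%). The median log2 change was 0.04, near the 0.01 over all tested, and it was -0.03 with RLE size factors. All 35 rises were in the group highest on 7 Jul and all 19 falls in the group highest on 17 Jun, a division that the choice by highest date bears on. Trees differed in direction, with median log2 changes of -0.37 in CCTO44 and -0.26 in CCTO46, and of 0.31 in CCTO89 and 0.34 in CCTO90; this difference was not tested. Without CCTO44 the calls were 34, 5 of them lower, beside 20.2% of all transcripts called (31.0% in the main fit).

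The steepest fall here was in psme_t040125, at 1.57, 2.60, 2.27 and 2.85 CPM on 28 Jul in CCTO44, CCTO46, CCTO89 and CCTO90, against 60.4, 71.5, 48.5 and 44.8 CPM in the same trees on 6 May (log2 change -4.85 ± 0.55, edgeR adjusted p = 1.33e-09). The drop came after 17 Jun, when these trees had 55.6, 91.9, 52.1 and 56.0 CPM, and before 7 Jul, when they had 2.74, 2.30, 3.29 and 8.23 CPM. By 7 Oct it was back at 47.8, 18.8 and 36.8 CPM in CCTO43, CCTO44 and CCTO90. This member thus had its highest and its lowest date mean within the same summer. The largest rise was in psme_t041178, at 410, 478, 314 and 310 CPM on 28 Jul against 30.4, 64.1, 78.5 and 14.3 CPM on 6 May in these trees in order (log2 change 3.04 ± 0.41, edgeR adjusted p = 9.16e-08). It was followed by psme_t009377, at 20.8, 32.3, 57.1 and 40.7 CPM against 3.93, 4.58, 13.7 and 10.4 CPM (log2 change 2.14 ± 0.43, edgeR adjusted p = 9.89e-05). In neither did the dates overlap. The call on psme_t053350 (log2 change -2.10 ± 0.71, edgeR adjusted p = 0.0205) was lost without CCTO44 (adjusted p = 0.234), without CCTO46 (0.0587), without the tree block (0.102) and with no filter on low counts (0.0662).

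For 7 Sep, sampled in CCTO44 and CCTO46 only, against 7 Apr, 23 members rose and 36 fell, beside 12.1% and 14.0% of all tested. The medians of the log2 change were -0.23 in members and -0.16 over all tested. These dates are also of similar day length. The choice bears on the comparison, since 7 Sep was the lowest date of 14 members and 7 Apr of 2. Without the tree block there were 30 calls (13 higher, 17 lower), beside 16.5% of all transcripts called (26.1% in the main fit). By tree, the median log2 change of members was -0.45 in CCTO44 and -0.13 in CCTO46, beside -0.10 and 0.00 over all tested. Leaving out either tree left a single September library, so both the number and the balance of calls rest on a pair of September libraries. psme_t041178 was again higher on the later date, at 145 and 270 CPM in CCTO44 and CCTO46, against 15.8 to 54.3 CPM in 4 trees (log2 change 2.17 ± 0.46, edgeR adjusted p = 0.000299). psme_t012561 had 56.3 and 24.4 CPM on 7 Sep against 3.20 to 13.7 CPM (log2 change 3.04 ± 0.62, edgeR adjusted p = 0.000217), a call lost without CCTO44 (adjusted p = 0.0754). The largest falls, psme_t054157 (-3.64 ± 1.14, edgeR adjusted p = 0.0139) and psme_t053350 (-3.08 ± 1.00, adjusted p = 0.0183), were lost without either tree and without the block.

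**Figure D4:**
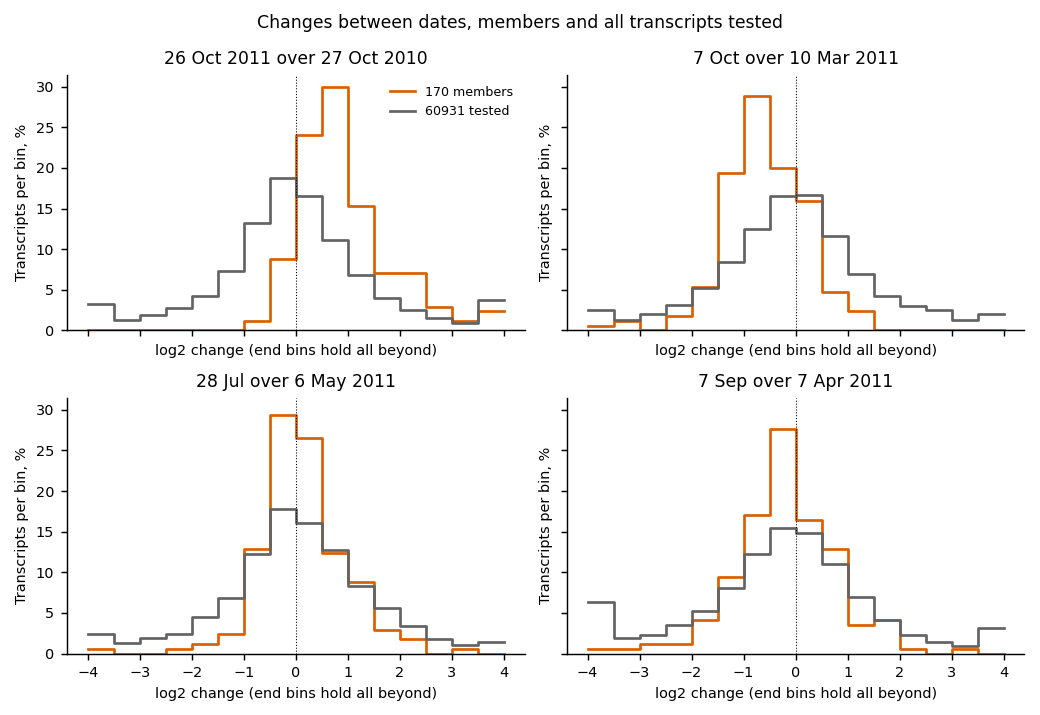
Percent of transcripts per bin of log2 change (later over earlier date) for the 170 members (orange) and all 60931 transcripts tested (grey), 1 panel per comparison, with changes beyond 4 in either direction placed in the end bins. Members lie right of all tested for 26 Oct 2011 over 27 Oct 2010 (medians 0.71 and -0.08) and left of them for 7 Oct over 10 Mar (medians -0.60 and -0.05).

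Levels also differed between trees on the same dates. Tree differences were called in 136 of the 170 members (80.0%), beside 71.5% of all transcripts tested (edgeR F test over the tree terms, adjusted p under 0.05). The median log2 range between the highest and lowest tree was 0.66 in members and 1.11 over all tested. A range of 2-fold was reached by 23.5% of members, against 54.2% of all tested. The choice bears on both contrasts. It left out transcripts with a library of the highest date at or below their average over dates. It also left out transcripts of low level, which all tested include. How much of the smaller range in members comes from the choice was not tested. Trees of the higher locality, CCTO44 and CCTO90, lay both above or both below the other 3 trees in 28.8% of members, beside 29.3% of all tested. Among members with a tree difference CCTO43 was the highest tree in 42 (30.9%), beside 21.3% of all such transcripts; this tree had no library in summer.

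The smallest p belonged to psme_t003934, psme_t047285 and psme_t008623 (edgeR adjusted p = 2.35e-17, 2.7e-16 and 1.11e-15). psme_t003934 was highest in CCTO89 on each date that tree was sampled, for example 93.5 CPM on 7 Jul against 52.8, 39.1 and 46.9 CPM in CCTO44, CCTO46 and CCTO90. psme_t047285 ran from 1.04 to 5.43 CPM over the libraries of CCTO43 and from 14.5 to 44.3 CPM over those of CCTO90, with no overlap. psme_t008623 followed locality: on 7 Jul it had 95.1 and 95.2 CPM in CCTO44 and CCTO90, against 37.8 and 49.7 CPM in CCTO46 and CCTO89. On 17 Aug it stood at 35.5 CPM in the library labelled CCTO44 and 85.0 CPM in that labelled CCTO46, the reverse of their order on every other date.

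**Figure D5:**
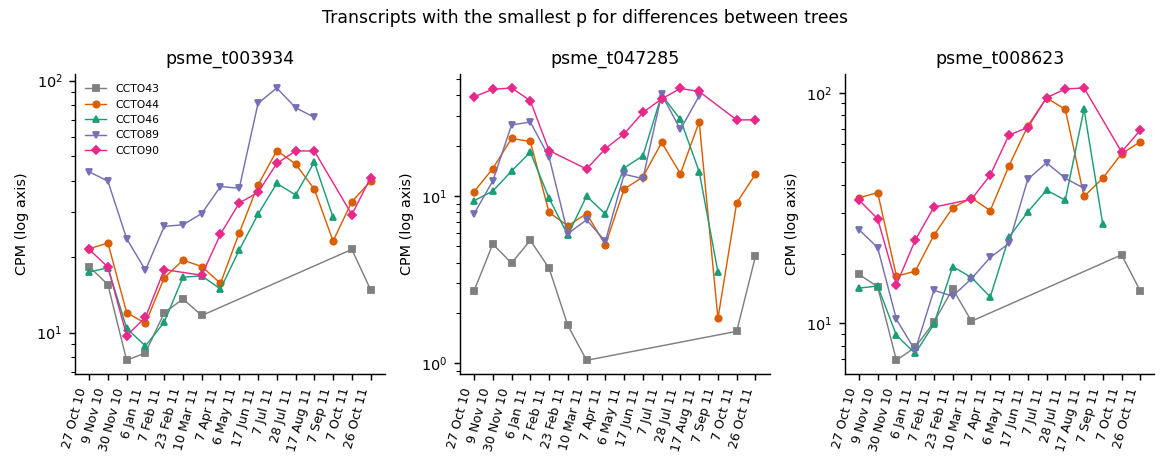
CPM (log axis) by collection date in each tree for the 3 members with the smallest p for tree differences; lines join the libraries of a tree. CCTO89 runs above the other trees in psme_t003934, CCTO43 below and CCTO90 mostly above them in psme_t047285, and CCTO44 and CCTO90 above the others in psme_t008623 except in the libraries labelled CCTO44 and CCTO46 on 17 Aug, where their order turns.

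Whether trees differed in the height of the summer rise was tested in the 4 trees sampled in summer. The test set 17 Jun and 7 Jul, the dates that the choice used, against the other dates. The choice also required every library of a member's highest date to lie above its average over dates. This bounds how low any tree could lie on that date, so the counts for members are not free of the choice. No member was called by edgeR (0 of 170) or by DESeq2 (0 of 170), and over all transcripts tested 0% were called by edgeR and 17 transcripts by DESeq2. At an unadjusted p under 0.05 there were 10 members by edgeR (5.88%, beside 4.73% of all tested). By DESeq2 there were 13, with no share over all tested to set beside them. The smallest p was that of psme_t053350, whose mean of 17 Jun and 7 Jul was 6.05 times the mean of the other dates in CCTO90 and 1.51, 2.11 and 1.55 times in CCTO44, CCTO46 and CCTO89 (edgeR adjusted p = 0.779, unadjusted 0.00534). Next came psme_t033862 (edgeR adjusted p = 0.847) and psme_t032930 (edgeR adjusted p = 0.904). The absence of calls does not show that the trees rose alike.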

How the data were processed

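Per the labels' protocols, strand-marking libraries (dUTP in the second strand) were prepared from poly(A) RNA of needles and read by Illumina sequencing. Bowtie2 2.2.3, CASAVA 1.8 and DESeq appear in the submitters' processing notes. Which transcript set was aligned to, and how reads shared by near-identical transcripts were counted, is not stated, so such members are uncertain. The authors deposited whole-number counts per transcript, which were used for all tests. They also deposited normalized signal values, the counts divided by 1 factor per library, used only to repeat the choice of members.

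The members and lists were chosen with earlier results of these data known. CPM is the count over the column sum. Tests used edgeR 4.0.16 in R 4.3.3 (TMM, filterByExpr by date with a minimum count of 10, robust quasi-likelihood fit with date and tree, all 66 libraries), with p-values adjusted over the 60931 transcripts that passed, all 170 members among them. Tree entered as a block because the same trees were sampled again, so replicate numbers pair libraries by tree. The summer rise by tree was fitted in the 4 trees with summer libraries. Fold changes are later over earlier date, SE was taken as the change over the square root of F, and SD is over libraries. The spread is between single libraries of different trees. Fits were tested on simulated counts. Alternatives were RLE and upper-quartile factors, no low-count filter, DESeq2 1.42.0, no tree block, fewer libraries, and other scalings in the choice. Named transcripts were members with the 5 largest ratios and 3 highest means per group, the 2 largest called changes each way that kept direction in every tree, the 3 smallest p-values for trees, the widest and narrowest, and those nearest the limits; the last part replaces a planned limit of 200 that was not reached. Interpolated values were not used.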

Additional observations from a re-analysis of the deposited data

Results flagged for a closer look

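Among 45 groups of 4 or 5 libraries examined (each named member on its highest date and the summed share of the members by date), 5 held 1 library far from the others, by a gap that made up 0.835 to 0.902 of the group's range (Dixon's test at 95%); chance gives about 1 in 20 such groups. On 7 Jul psme_t091355 had 149 CPM in CCTO90, against 26.8, 36.5 and 18.6 CPM in CCTO44, CCTO46 and CCTO89. The same tree was high on 28 Jul at 137 CPM, so this maximum is mostly that of CCTO90. On 7 Jul psme_t037024 had 496 CPM in CCTO90, against 588, 573 and 585 CPM in CCTO44, CCTO46 and CCTO89. On 17 Jun psme_t040125 had 91.9 CPM in CCTO46, against 55.6, 52.1 and 56.0 CPM in CCTO44, CCTO89 and CCTO90. On 7 Jul psme_t047285 had 20.9 CPM in CCTO44, against 40.3, 40.5 and 38.1 CPM in CCTO46, CCTO89 and CCTO90. On 17 Jun psme_t022440 had 26.0 CPM in CCTO89, against 17.1, 15.4 and 16.6 CPM in CCTO44, CCTO46 and CCTO90. The cause of these single libraries was not tested.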

How the results depend on the processing

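Fitted on the libraries of the compared dates alone, with tree block, calls among the members numbered 66 for 26 Oct 2011 against 27 Oct 2010 (104 with all libraries) and 58 for 7 Oct against 10 Mar (89). Without the replicate block the paired calls were 83 for the year, 63 for 7 Oct against 10 Mar, 36 for 28 Jul against 6 May and 30 for 7 Sep against 7 Apr, and 104, 89, 54 and 59 with it. Over all transcripts, 20.5%, 18.9%, 20.7% and 16.5% were called without the block, against 28.8%, 32.3%, 31.0% and 26.1% with it. Leaving out each tree in turn gave 34 to 57 calls for 28 Jul against 6 May (34 without CCTO44) and 23 to 60 for 7 Sep against 7 Apr (23 without CCTO44, 32 without CCTO46); the lone September library is then assumed to vary like the other dates. The choice of members kept 107 of 170 with TMM effective library sizes, 107 with the authors' normalized values, and 102 to 148 when a tree was left out (102 without CCTO44, 113 without CCTO46). In all 9 such alternatives 41 members were kept, and none was lost from all. With running means over 2 successive dates, 49.8% of chosen transcripts were highest at the solstice in the tree left out, against 12.8% of all within the limits; the window from 6 May to 17 Aug then held 80.7%. With TMM sizes the summer mean lay above the other dates for 96.5% and 51.2%. The cause of these shifts was not tested. No named change turned its sign; of the alternative values of called named members, 22 lost their call and 204 did not. Without CCTO44 the calls for 7 Sep turned to more higher than lower (13 and 10, against 23 and 36). Over all transcripts, the libraries of the compared dates alone gave 4065 calls for the year (17544 with all libraries), 8070 for 7 Oct (19684) and 11216 for 28 Jul (18879). For 7 Oct there were 11517 without the block and 12232 without CCTO90, and for the year 11429 without CCTO43. For 7 Sep there were 10060 without the block, 6208 without CCTO44 and 7775 without CCTO46 (15908 in all). With no low-count filter 68291 transcripts differed between trees (43540 with it), 40.0% of those then tested against 71.5%.

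RLE factors moved the median of all transcripts for the year comparison to 0.05 and that of the members to 0.88 (main -0.08 and 0.71). The p-values of psme_t053350 and psme_t033862 for the summer rise reached 0.902 and 0.941 when a tree was left out. The fit of the summer rise has no CCTO43 library, so that tree could not be left out there.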
